A study of Homo sapiens with 8 samples.

Results

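The mRNAs of 8 AU-rich element RNA-binding proteins were followed through a breast cancer progression series of 4 related cell lines. The 8 genes, ELAVL1, HNRNPD, TIA1, TIAL1, ZFP36, ZFP36L1, ZFP36L2 and KHSRP, were a fixed list of well-known binders, and each was found by its Ensembl identifier among the 56632 genes of the deposited count table. All 8 were among the 18431 genes with enough counts to be tested. M1 is MCF10A, an immortalized, non-tumorigenic human mammary epithelial line. M2 (MCF10AT1k.cl2) was obtained from M1 by transfection with activated T24-HRAS followed by xenografting, M3 (MCF10Ca1h) and M4 (MCF10CA1a.cl1) came from carcinomas that grew out of M2 xenografts, and M2 and M4 carry clone names. Each line was grown for 8 days as acini in Matrigel in 2 biological replicates, M1 and M2 with 10 ng/ml EGF and M3 and M4 with 0 ng/ml, so a change of line from M1 or M2 to M3 or M4 cannot be told apart from the absence of EGF. Poly A+ RNA was sequenced, and the authors counted it per gene.

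AU-rich elements are stretches of repeated AUUUA and U-rich sequence in the 3′ UTRs of many short-lived mRNAs, among them those of cytokines, growth factors and immediate early genes. Proteins that bind them decide how long such an mRNA lasts and how often it is translated. The zinc finger proteins ZFP36 (tristetraprolin), ZFP36L1 and ZFP36L2 recruit the CCR4-NOT deadenylase and speed decay, KHSRP brings in the exosome, HNRNPD (AUF1) mostly destabilizes its targets, ELAVL1 (HuR) mostly stabilizes them, and TIA1 and TIAL1 (TIAR) repress translation and gather in stress granules. In the study, HuR and TIA1 were examined as binders of the mRNA of PDCD4, a tumor suppressor, in connection with its antisense RNA PDCD4-AS1. There, depleting HuR in M1 cells raised PDCD4 mRNA and protein, and the paper concludes that HuR lowers PDCD4 mRNA in mammary epithelial cells. Depleting TIA1 did not reduce PDCD4 mRNA.

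Several of these mRNAs carry an AU-rich element themselves. The core nonamer that ZFP36 proteins recognize (TTATTTATT in DNA letters, searched on the sense strand of the Ensembl canonical transcript) was found once each in the 3′ UTRs of 4 of the 8 members. The 4 sites are shown because they are the members' own copies of the element the proteins bind; capitals mark the nonamer, the sequence is the GRCh37 reference in the direction of the mRNA, and each window is 30 bases.
ELAVL1, chr19:8026711-8026740, minus strand: atttatgtatTTATTTATTgaagtgtgaaa
ZFP36, chr19:39899836-39899865, plus strand: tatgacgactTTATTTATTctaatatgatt
ZFP36L1, chr14:69254793-69254822, minus strand: aactgttggaTTATTTATTttagaaattcc
ZFP36L2, chr2:43450586-43450615, minus strand: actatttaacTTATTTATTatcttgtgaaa
Of 19444 canonical 3′ UTRs, 8.32% held the nonamer. The share grows with length, and among 3′ UTRs within 10% of the same length it was 20.7% for ELAVL1 (4910 bases), 4.87% for ZFP36 (708 bases), 9.74% for ZFP36L1 (1871 bases) and 10.1% for ZFP36L2 (1917 bases). HNRNPD, TIA1, TIAL1 and KHSRP had no nonamer in this transcript. The shorter AUUUA pentamer, which the nonamer contains, occurred in all 8, and in 66.6% of the 19444 3′ UTRs. It ranged from 1 time in KHSRP to 13 times in ELAVL1 and in TIA1. The medians of 3′ UTRs of like length were 4 for KHSRP, 11 for ELAVL1 and 7 for TIA1. PDCD4 mRNA had 9 pentamers, with a median of 4 at like length, and no nonamer in a 3′ UTR of 1918 bases.

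Before the comparisons, the libraries were examined. Total counts ran from 69669945 to 107350288. The M2 replicates were much closer to each other than the replicates of the other lines: the chi-square of their counts per degree of freedom was 6.65, against 111 in M4, 233 in M1 and 293 in M3, where a value near 1 is expected from repeated sampling of 1 library. The spread of a gene is estimated over the 4 lines together, so this pair also lowers the spread used for the other lines. Another table by the authors places the library labelled M1 replicate 2 in M2 and the library labelled M2 replicate 1 in M1. The sample labels are used here, and the calls of members and the counts of the gene lists were repeated with these 2 libraries exchanged and without both. By rank correlation over the genes tested, M2 replicate 1 was closest to M2 replicate 2 (0.993, and 0.968 with M1 replicate 1). M1 replicate 2 was closest to M1 replicate 1 (0.975, and 0.973 with M2 replicate 1). The exchange therefore puts the 2 most alike libraries in different lines. Which placement is right was not tested. All 10 epithelial markers, KRT5, KRT14, KRT17 and TP63 among them, were present, and their summed level was 9989 to 17751 CPM (counts scaled to library size). The 6 fibroblast markers summed to 6.43 to 74.7 CPM, and the 6 immune markers to 8.62 to 53.4 CPM with CD3E at 0 in every library. HRAS was not higher in M2 than in M1 by the test (adjusted p = 0.736) and was higher in M3 and M4 (adjusted p = 0.0038 and 0.00119, edgeR).

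Levels are given below as CPM with library sizes scaled by the TMM method. A difference between lines is a log2 fold change with its standard error (SE) from edgeR's quasi-likelihood test, fitted on all 18431 genes over the 8 libraries. A gene is called when its Benjamini-Hochberg adjusted p is under 0.05. Where replicate numbers name values, they are only names. With 2 libraries per line, lines often do not overlap. This held for 59% of the 18431 genes in M3 against M2 and for 73% in M4 against M2. Among the 8 members it held for 4 and 7 in these comparisons. In M4 against M1 it was 67.3% of genes and 5 members. The share for a line against all the others was not computed.

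Compared per length, in TPM (scaled to library size and to gene length) over the union of a gene's exons, the members fell into a higher and a lower group. ZFP36L1 had a mean level of 119 TPM over the 8 libraries, ZFP36L2 111, KHSRP 109, ZFP36 97.1 and HNRNPD 89.7, while ELAVL1 had 42.3, TIAL1 33.9 and TIA1 19.2. Neighbours in the upper group were not separated: the libraries of ZFP36L1 ranged from 68.5 to 191 TPM and those of ZFP36L2 from 51.3 to 222 TPM, which span the means of the other 3. The place of HNRNPD depends on the length used, because its exon union is 7013 bases and its longest coding transcript 3068 bases; with the latter it was the highest at 126 TPM, above ZFP36L1 at 105 TPM. TIA1 was the lowest with either length. The range over the 8 libraries, as the highest CPM over the lowest, was 4.16 for ZFP36L2, 2.63 for TIA1, 2.58 for ZFP36L1 and 2.10 for HNRNPD, but 1.63 for TIAL1, 1.36 for ZFP36, 1.34 for KHSRP and 1.28 for ELAVL1.

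**Figure D1:**
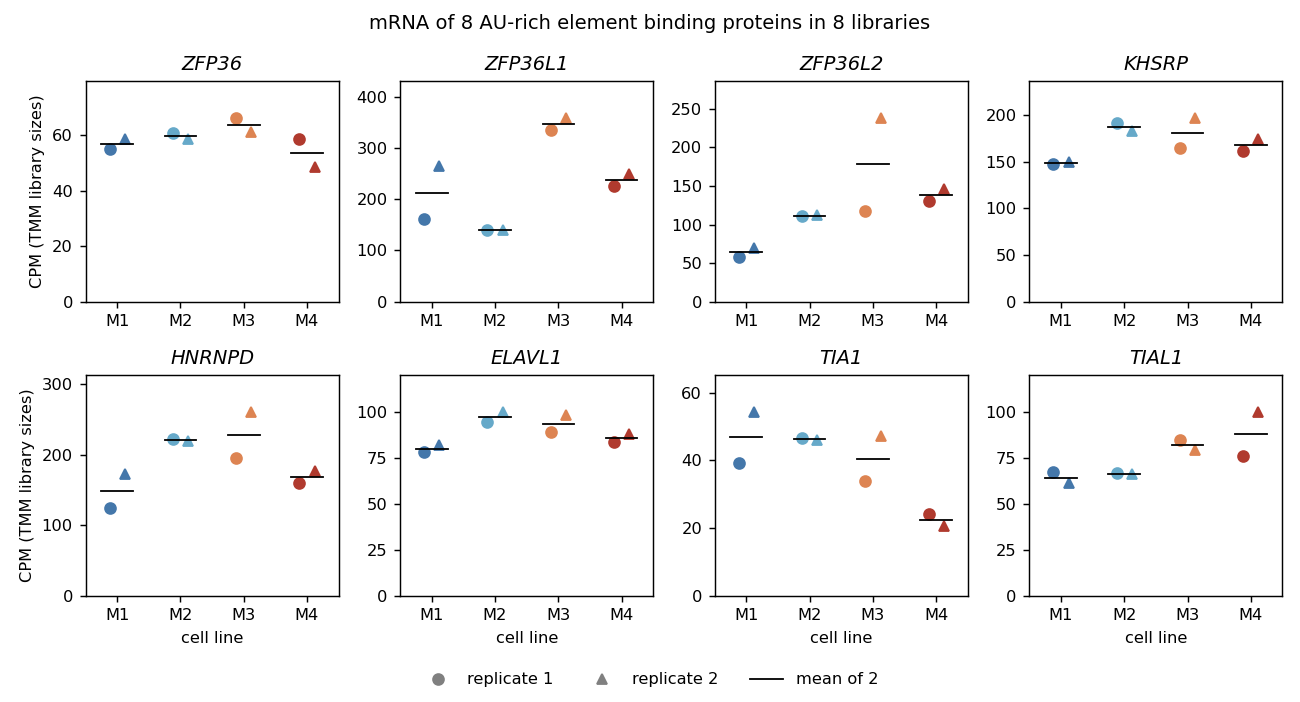
Level of each member (y axis: CPM with TMM library sizes, linear from 0) in the 2 libraries of M1, M2, M3 and M4 (x axis), with circles for replicate 1, triangles for replicate 2 and bars for the mean of 2. TIA1 sits lowest in M4 (20.6 and 24.1 CPM), ZFP36L2 lowest in M1 (57.3 and 70.1 CPM), and ELAVL1 stays between 78.1 and 100 CPM in all 8 libraries.

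TIA1, the translational repressor of stress granules, was the member that fell in M4. Its level was 39.2 and 54.3 CPM in M1, 46.6 and 46.1 CPM in M2, 33.8 and 47.2 CPM in M3, and 24.1 and 20.6 CPM in M4. Both M4 libraries lay below all 6 others, and M2 and M3 each overlapped M1. In bulk RNA a lower level in every cell and fewer cells with the mRNA cannot be told apart. M4 differed from M1 by a log2 fold change of -1.06 (SE 0.22, adjusted p = 0.00937), from M2 by -1.05 (SE 0.22, adjusted p = 0.0137) and from M3 by -0.86 (SE 0.22, adjusted p = 0.0345), each with n = 2 per line. M2 and M3 differed from M1 by -0.01 (SE 0.22) and -0.21 (SE 0.22), and neither was called. In M4 against M1, 15.8% of all genes tested were called lower. With the 2 libraries in question exchanged, the M4 against M1 change was -0.94 (adjusted p = 0.043), and without both of them it was -0.81 (adjusted p = 0.0952); without M4 replicate 2 the adjusted p was 0.0784. The M4 against M3 call was lost in 7 of 13 alternatives, including total-count scaling (adjusted p = 0.0726), the exchange of the 2 libraries (adjusted p = 0.0739), their omission (adjusted p = 0.0555) and the omission of M3 replicate 2 or of either M4 replicate (adjusted p from 0.114 to 0.178), and M4 against M2 in 5 of 13, among them each omission of 1 M2 or M4 replicate (adjusted p from 0.0573 to 0.0967). Exchanged, the M4 against M2 call was kept (adjusted p = 0.0205), and without both libraries it was lost (adjusted p = 0.0622).

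TIA1 lies at chr2:70436576-70475792 on the minus strand of GRCh37, and the gene C2orf42 on the same strand extends over most of it in the gene models used. The 2 share 211 exon bases, and C2orf42 had 503 to 914 counts per library, or 19.7% of the counts of TIA1 over all libraries. That share was 17.5% and 12.8% for M1, 19.3% and 15.5% for M2, 21.0% and 20.1% for M3, and 27.7% and 35.6% for M4. It was highest where TIA1 was lowest, but TIA1 is its divisor, so a fall of TIA1 alone raises it. Not scaled to library size, C2orf42 itself stood at 568 and 572 for M1, against 756 and 572 for M4. The TMM-scaled library sizes were 8.27e+07 and 8.20e+07 for M1, and 1.13e+08 and 7.81e+07 for M4. The shared stretch is 211 of the 6607 bases in the exon union of TIA1. The counts of TIA1 are uncertain where reads fall in it, and an effect on the M4 difference was not tested. The 3 protein-coding genes whose log2 CPM followed TIA1 most closely over the 8 libraries, out of 10299 compared, were RERG (r = 0.991), ZNF189 (r = 0.985) and SSBP3 (r = 0.982); the 8 libraries share 4 lines, so these are descriptions.

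TIAL1, the close relative of TIA1, was not called lower in any line. It lies at chr10:121331314-121356541 on the minus strand. Its level was 67.2 and 61.4 CPM in M1, 66.7 and 66.2 CPM in M2, 85.1 and 79.5 CPM in M3, and 76.2 and 100 CPM in M4. All 4 libraries of M3 and M4 lay above all 4 of M1 and M2, and the share of all genes so separated was not computed. No pair of lines passed the test (M4 against M1: log2 fold change 0.46, SE 0.16, adjusted p = 0.0604), but the mean of M3 and M4 was higher than the mean of M1 and M2 by 0.38 (SE 0.11, adjusted p = 0.0364). That TIAL1 call was kept in 7 of 16 alternatives. In that comparison 28.9% of all genes were called, and 4 of the 8 members: TIAL1, ZFP36L1 (0.74, SE 0.16, adjusted p = 0.0113) and ZFP36L2 (0.90, SE 0.21, adjusted p = 0.0159) higher, and TIA1 (-0.63, SE 0.15, adjusted p = 0.019) lower. With the 2 libraries exchanged, 1 member was called in this comparison (TIA1), without both 1 (ZFP36L1), without M4 replicate 2 again 1 (ZFP36L1), and without either M2 replicate 0.

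The balance of TIA1 and TIAL1 within a library does not depend on library scaling. TIA1 over TIAL1, as a ratio of CPM, was 0.582 and 0.885 for the M1 libraries, 0.698 and 0.696 for M2, 0.397 and 0.594 for M3, and 0.316 and 0.206 for M4. The M4 ratios were the lowest, and those of M3 overlapped M1. In M4 replicate 2, where TIA1 was lowest, TIAL1 was highest.

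ZFP36L2, a zinc finger decay factor, was higher in both carcinoma lines than in M1, and was called in neither against M2. It had 57.3 and 70.1 CPM in M1, 111 and 112 CPM in M2, 118 and 238 CPM in M3, and 131 and 147 CPM in M4. M1 lay below every library of the other lines. The log2 fold change from M1 was 1.48 in M3 (SE 0.30, adjusted p = 0.0128) and 1.12 in M4 (SE 0.30, adjusted p = 0.0243), and 0.80 in M2 (SE 0.29, adjusted p = 0.157), which was not called. Against M2 it was 0.68 in M3 (SE 0.29, adjusted p = 0.223) and 0.32 in M4 (SE 0.29, adjusted p = 0.467). Higher calls made up 12.9% of all genes in M3 and 15.6% in M4. The M3 value is set in part by 1 library: without M3 replicate 2 the change was 0.89 (adjusted p = 0.0192), and without M3 replicate 1 it was 1.91 (adjusted p = 0.00293). With the 2 libraries exchanged, the changes were 1.09 (adjusted p = 0.241) in M3 and 0.72 (adjusted p = 0.318) in M4, and without both they were 1.64 (adjusted p = 0.0584) and 1.27 (adjusted p = 0.09). The M3 call was also lost without M1 replicate 1 (adjusted p = 0.0666), and the M4 call with any 1 of its 4 libraries left out (adjusted p from 0.0584 to 0.112).

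ZFP36L2 lies at chr2:43449541-43453745 on the minus strand. Gene models newer than those the authors used place an antisense lncRNA, ENSG00000287387, over 826 of its exon bases; it was not analysed here, and without knowing whether the counting used strand, its reads cannot be told apart from those of ZFP36L2. The genes closest to ZFP36L2 over the 8 libraries were BICD1 (r = 0.981), PLD6 (r = 0.979) and MAP3K7 (r = 0.976), the last a kinase of the TGF-beta and interleukin-1 pathways.

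ZFP36L1, the zinc finger mRNA with the highest mean TPM, had its lowest level in M2 and its highest in M3. The values were 162 and 265 CPM in M1, 140 and 140 CPM in M2, 336 and 360 CPM in M3, and 226 and 250 CPM in M4. Both M3 libraries lay above all others, both M2 libraries below all others, and M4 lay within the range of M1. M3 was higher than M2 by 1.32 (SE 0.22, adjusted p = 0.0179) and M4 higher than M2 by 0.77 (SE 0.22, adjusted p = 0.0427). Against M1 none of the lines was called by edgeR: the log2 fold change was -0.61 in M2 (adjusted p = 0.152), 0.71 in M3 (adjusted p = 0.0571) and 0.16 in M4 (adjusted p = 0.623). The M3 against M1 difference of ZFP36L1 was called in 5 of 13 alternatives, among them DESeq2 (adjusted p = 0.0282), and ran from 0.40 without M1 replicate 1 to 1.11 without M1 replicate 2. Of all genes, 5.55% were called in M3 against M2 and 22.2% in M4 against M2.

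Both ZFP36L1 calls were lost when libraries were exchanged or left out, as were many calls among all genes. With the 2 libraries exchanged, M3 against M2 was 0.78 (adjusted p = 0.236) and M4 against M2 0.23 (adjusted p = 0.636), and without both they were 1.32 (adjusted p = 0.0581) and 0.76 (adjusted p = 0.11). Exchanged, 1.16% of all genes were called in M3 against M2 and 12.1% in M4 against M2. Leaving out any 1 library of the lines compared also ended both ZFP36L1 calls, while the log2 fold changes stayed at 1.27 to 1.37 and 0.71 to 0.85. The gene lies at chr14:69254377-69262970, minus strand. NEDD9 (r = 0.985), a scaffold protein of focal adhesions, F11R (r = 0.975), a tight junction protein, and FNDC3B (r = 0.970) followed it most closely.

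ZFP36 itself, the founding member of the family and an immediate early gene, showed no called change. It lies at chr19:39897487-39900052 on the plus strand. It had 54.8 and 58.7 CPM in M1, 60.9 and 58.7 CPM in M2, 66.3 and 61.0 CPM in M3, and 58.8 and 48.7 CPM in M4. The lines lay close together, and the largest difference, M4 against M3, was -0.24 (SE 0.14, adjusted p = 0.262). By TPM, ZFP36 made up 40.6% and 33.1% of the 3 for M1, 37.4% and 36.4% for M2, 28.6% and 20.4% for M3, and 29.8% and 23.9% for M4, with all 4 libraries of the carcinoma lines below the other 4. The ratio of ZFP36L2 to ZFP36L1, in CPM, was 0.354 and 0.265 for M1, 0.792 and 0.801 for M2, 0.351 and 0.663 for M3, and 0.579 and 0.586 for M4. M2 stood above the other lines, and M3 overlapped M1. The 3 summed to 226 and 271 TPM in M1, 262 and 262 TPM in M2, 334 and 519 TPM in M3, and 368 and 379 TPM in M4. TPM is not scaled by TMM, so it can differ from CPM between lines. The mean of ZFP36 was 56.8 CPM in M1 and 53.7 CPM in M4, but 90.8 and 100 TPM. The mean of ELAVL1 was 80.2 and 86.0 CPM, but 36.4 and 45.5 TPM.

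**Figure D2:**
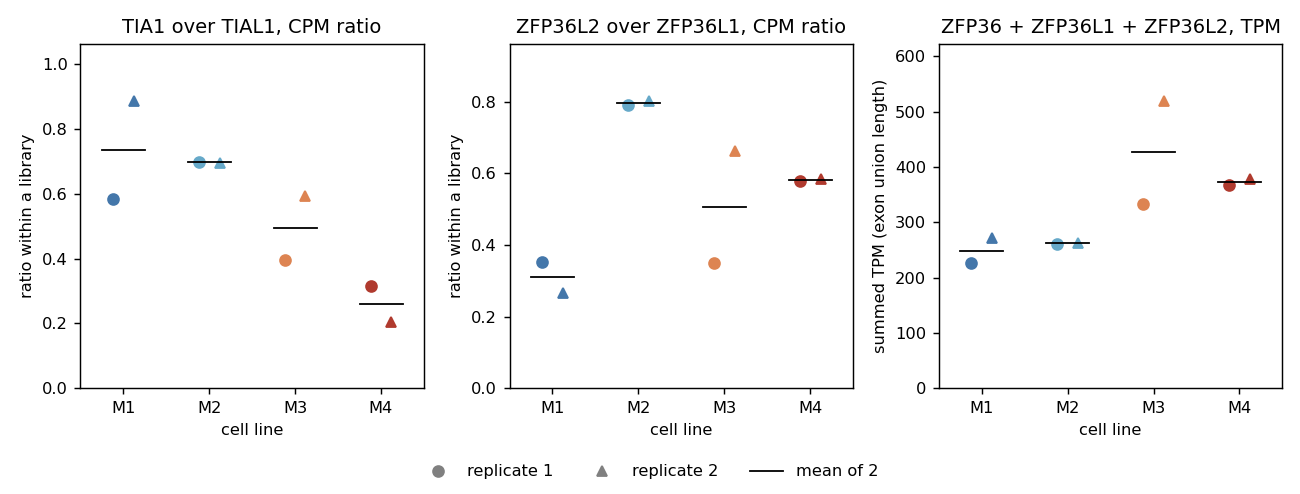
Ratio of TIA1 to TIAL1 (left) and of ZFP36L2 to ZFP36L1 (middle) within each library, from CPM, and summed TPM of ZFP36, ZFP36L1 and ZFP36L2 (right), by line (x axis), with circles for replicate 1, triangles for replicate 2 and bars for the mean of 2. TIA1 over TIAL1 is lowest in M4 (0.206 and 0.316), ZFP36L2 over ZFP36L1 is highest in M2 (0.792 and 0.801), and the summed family is at least 334 TPM in every M3 and M4 library and at most 271 TPM in every M1 and M2 library. TPM is not scaled by TMM.

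ELAVL1, which encodes HuR, had the narrowest range over the 8 libraries. The gene lies at chr19:8023457-8070543 on the minus strand. It had 78.1 and 82.3 CPM in M1, 94.9 and 100 CPM in M2, 89.3 and 98.3 CPM in M3, and 83.7 and 88.4 CPM in M4. M1 lay below the other lines in both libraries, and no difference was called. The largest was 0.28 in M2 against M1 (SE 0.12, adjusted p = 0.222), and M4 differed from M1 by 0.10 (SE 0.12, adjusted p = 0.572). The antisense gene ENSG00000269813 within its 3′ region had at most 1 count in any library.

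KHSRP, the partner of the exosome, also varied little between libraries. The gene lies at chr19:6413113-6424822 on the minus strand. It had 148 and 150 CPM in M1, 191 and 183 CPM in M2, 164 and 197 CPM in M3, and 162 and 174 CPM in M4, again lowest in M1 and without a call. The largest difference was 0.33 in M2 against M1 (SE 0.14, adjusted p = 0.204). Its pseudogene KHSRPP1 had at most 46 counts in any library, so few reads were assigned to that copy.

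HNRNPD, which encodes AUF1, was more variable between replicates. The gene lies at chr4:83273651-83295656 on the minus strand. It had 124 and 173 CPM in M1, 222 and 220 CPM in M2, 195 and 261 CPM in M3, and 159 and 177 CPM in M4. M2 and M3 lay above M1 and M4, which overlapped each other. None of these differences passed edgeR's test: M3 against M1 was 0.62 (SE 0.20, adjusted p = 0.0647), M2 against M1 0.57 (SE 0.20, adjusted p = 0.147) and M4 against M3 -0.44 (SE 0.20, adjusted p = 0.172). HNRNPD in M3 against M1 was called in 5 of 13 alternatives, among them DESeq2 (adjusted p = 0.0475), and ran from 0.40 to 0.88 when 1 library was left out. Its pseudogenes HNRNPDP1 and HNRNPDP2 had at most 2 and 0 counts.

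**Figure D3:**
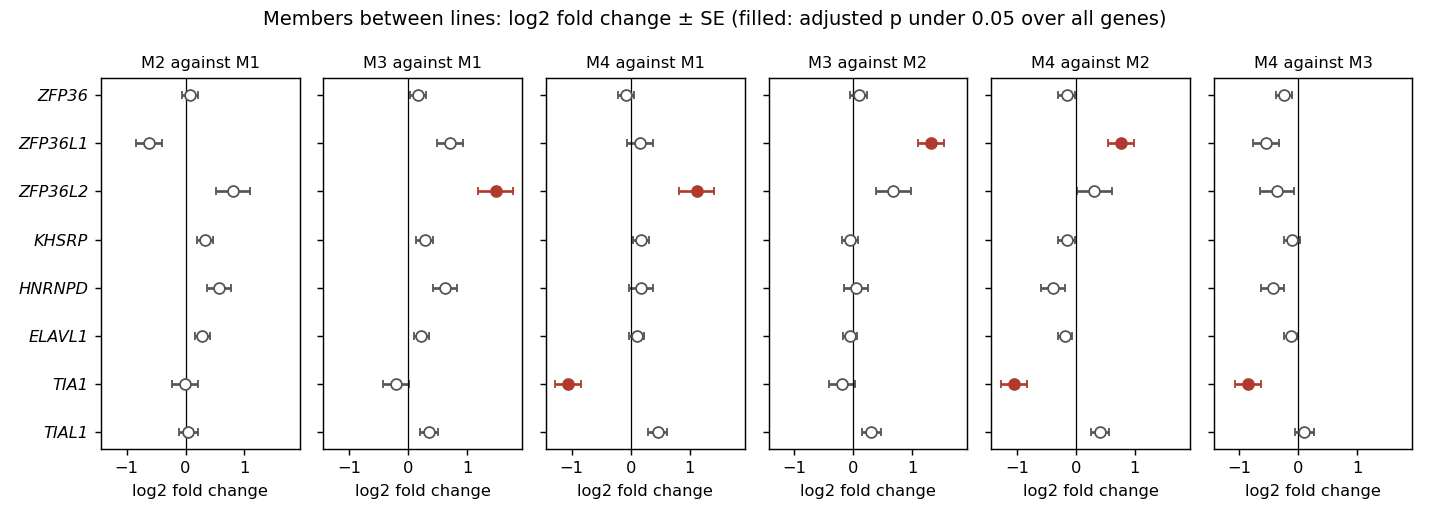
Log2 fold change of each member (y axis) in the 6 comparisons between lines, with bars for the SE and filled red points for an adjusted p under 0.05 over all genes tested. TIA1 is called lower in M4 against each other line (-1.06, -1.05 and -0.86), ZFP36L2 higher in M3 and M4 against M1 (1.48 and 1.12), and ZFP36L1 higher in M3 and M4 against M2 (1.32 and 0.77).

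The members called in each comparison were counted beside the share of all genes called, and no test compared them. In M2 against M1, which were grown in the same medium, 0 of 8 members were called by edgeR, against 4.83% of all genes, 3.37% higher and 1.46% lower; 4 members had an unadjusted p under 0.05, as had 23.3% of all genes, and DESeq2 called no member. In M3 against M1, 1 of 8 was called, ZFP36L2, against 21.3% of all genes, 12.9% higher and 8.33% lower. In M4 against M1, 2 of 8 were called, TIA1 and ZFP36L2, against 31.4%. M3 against M2 gave 1 (ZFP36L1, 5.55% of all genes), M4 against M2 gave 2 (TIA1 and ZFP36L1, 22.2%), and M4 against M3 gave 1 (TIA1), against 16.8% of all genes, 7.05% higher and 9.72% lower. These 6 comparisons share libraries and are not independent.

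The members' median absolute change was smaller than that over all genes tested, a set that includes genes at lower levels with larger counting error. No comparison at matched level was made. The median absolute log2 fold change of the 8 was 0.31 in M2, 0.32 in M3 and 0.18 in M4 against M1, and that of all genes tested was 0.39, 0.54 and 0.62. With the sign kept, the medians of the 8 were 0.18, 0.32 and 0.17, and those of all genes -0.04, -0.02 and -0.02. By the rule of a more than 2-fold change in each of the 2 replicates, applied by the study to FPKM and here to TMM-scaled CPM, ZFP36L2 passed in M3 and in M4 and no member passed in M2, where 17.3%, 22.4% and 10.2% of all genes passed. The rule pairs libraries by replicate number, which is only a name here. ZFP36L2 in M3 replicate 1 (118 CPM) and in M4 replicate 1 (131 CPM) was less than 2-fold above M1 replicate 2 (70.1 CPM). Both passes therefore rest on that pairing. With total-count scaling, 0 members passed in M3.

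The mRNA decay machinery these proteins act through was examined with lists of its parts; as background, 15.6% of all genes were called higher and 15.8% lower in M4 against M1, 4.73% and 5.12% with the 2 libraries exchanged, and 6.56% and 6.70% without both. For M3 against M1 the shares were 12.9% and 8.33%, 0.814% and 0.396% exchanged, and 5.30% and 3.24% without both. In M2 against M1 they were 3.37% and 1.46%, and 0 of the genes on the lists below were called there when the libraries were exchanged or left out. Deadenylases shorten the poly(A) tail as the first step of decay. Of 18 genes of the CCR4-NOT and PAN2-PAN3 deadenylases and their adaptors, 0 were called higher and 5 lower in M4 against M1, with a median log2 fold change of -0.37 against -0.02 for all genes; exchanged, or without both libraries, 0 were higher and 1 lower. PAN2, the catalytic partner of PAN3, fell from 34.9 and 51.0 CPM in M1 to 22.5 and 18.4 CPM in M4 (log2 fold change -1.07, SE 0.20, adjusted p = 0.00688). BTG2 (-0.89, adjusted p = 0.00311) and BTG1 (-0.82, adjusted p = 0.0323), adaptors that join deadenylases to other proteins, also fell. In M3 against M1 the counts were 0 higher and 3 lower, with 0 called exchanged or without both, and in M2 against M1 0 and 1.

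The exosome, which degrades deadenylated mRNA from its 3′ end, had called genes in both directions. Of 15 exosome and SKI genes, 6 were higher and 2 lower in M4 against M1, 1 and 2 with the libraries exchanged, and 4 and 1 without both. The nuclease DIS3 rose from 42.7 and 31.8 CPM to 82.5 and 82.4 CPM (log2 fold change 1.15, SE 0.16, adjusted p = 0.00225), and the subunits EXOSC3 and EXOSC8 rose by 0.97 and 0.92 (adjusted p = 0.00368 and 0.00223). The subunit EXOSC5 fell by 1.33 (adjusted p = 0.00169) and the cytoplasmic nuclease DIS3L fell by 0.97 (adjusted p = 0.00937). In M3 against M1, 6 of the 15 were higher and 0 lower, 0 and 0 with the libraries exchanged, and 2 and 0 without both; in M2 against M1 3 were higher and 0 lower.

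Decapping genes, whose products open the other end of the mRNA, had few calls against M1. Of 14 decapping and 5′ decay genes tested, 1 was higher in M4 against M1, EDC3 (0.58, SE 0.18, adjusted p = 0.0447), and 0 were lower, and with the libraries exchanged or without both 0 were called; in M3 against M1 4 were higher, 0 exchanged and 1 without both, and in M2 against M1 3. In M4 against M2, 2 were higher and 4 lower. The symbol DCP1A was not matched to a row of the table.

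Other AU-rich element binding proteins had called genes in both directions. Of 20 tested, 3 were called higher and 3 lower in M4 against M1, 1 and 1 with the libraries exchanged, and 1 and 0 without both. ELAVL2, a neuronal relative of HuR, rose from 1.57 and 1.67 CPM in M1 to 10.1 and 9.29 CPM in M4 (log2 fold change 2.58, SE 0.35, adjusted p = 0.00181). CELF1 and FXR1, both regulators of mRNA decay and translation, rose by 0.51 (adjusted p = 0.0344) and 0.44 (adjusted p = 0.0371). ARID5A, which stabilizes interleukin-6 mRNA, fell by 1.43 (adjusted p = 0.0319), from 10.6 and 27.0 CPM in M1 to 8.05 and 5.88 CPM in M4. The size of that fall is set in part by M1 replicate 2. AUH, an RNA-binding hydratase, fell by 1.28 (adjusted p = 0.00596) and the poly(A)-binding protein PABPC1 by 0.67 (adjusted p = 0.0292).

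The p38 and MK2 kinases phosphorylate ZFP36, and 14-3-3 proteins then hold it away from deadenylases. Of 14 such kinase, 14-3-3 and phosphatase genes, 5 were higher and 1 lower in M4 against M1, 1 and 1 with the libraries exchanged, and 3 and 1 without both. SFN (14-3-3 sigma), also one of the epithelial markers, rose from 506 and 445 CPM to 1420 and 1395 CPM (log2 fold change 1.57, SE 0.15, adjusted p = 0.000515), YWHAH (14-3-3 eta) rose by 1.24 (adjusted p = 0.00288) and the p38 activator MAP2K3 rose by 0.98 (adjusted p = 0.0153). MAP2K6, the other p38 activator, was nearly absent in M4 with 1 and 2 counts, against 58 and 162 counts in M1; the ratio of M1 to M4 was 85.3, with an exact 95% interval for counting error of 28.8 to 417. Between M3 and M1, 6 of the 14 were higher in M3 and 0 lower, and 0 were called exchanged or without both.

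Many of the mRNAs listed as carriers of AU-rich elements were called higher in M4. The list was chosen with earlier results of these data known and includes PDCD4, the study's target mRNA, so its counts are descriptions. Of 36 listed cytokines, growth factors, early genes and survival genes, 34 were tested. In the canonical 3′ UTR, 35 of the 36 had an AUUUA pentamer and 19 the nonamer, beside 66.6% and 8.32% of all canonical 3′ UTRs. MMP9, with a 3′ UTR of 193 bases, had neither. In M4 against M1, 20 were called higher and 2 lower, 12 were not called, and the median log2 fold change was 1.78 against -0.02 for all genes, where 15.6% were called higher. In M3 against M1 13 were higher and 2 lower (12.9% and 8.33% of all genes), and in M2 against M1 3 were higher and 0 lower. With the 2 libraries exchanged, 16 of 34 were higher in M4 against M1 and 4 in M3 against M1, where 4.73% and 0.814% of all genes were higher. Without both libraries 17 and 13 of 35 tested were higher, beside 6.56% and 5.30% of all genes.

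CXCL8 (interleukin-8), a neutrophil chemokine, had 1.11 and 1.95 CPM in M1, 5.65 and 4.72 CPM in M2, 76.0 and 61.9 CPM in M3, and 227 and 135 CPM in M4 (M4 against M1: log2 fold change 6.89, SE 0.40, adjusted p = 0.000113). The lines did not overlap and stood in the order M1, M2, M3, M4. CSF2 had 0 counts in both M1 libraries and 182 and 234 in M4, at least 63.2-fold higher in M4 against a floor of 3 counts per library, and IL6 had 0 counts in M1 and 127 and 41 in M4, at least 22.6-fold higher. IL1B (6.63), IL1A (5.69), LIF (4.57), PTGS2 (4.32), ICAM1 (3.94), TNFAIP3 (3.22), PIM1 (3.14) and PLAUR (3.04) were also called higher, with log2 fold changes in parentheses, as was MMP9, with 0 and 2 counts for the M1 libraries and 85 and 21 for M4 (ratio 45.6, exact 95% interval for counting error 12.3 to 381). Of the other chemokines tested, CXCL1 (1.63) and CCL20 (2.39) were called and CXCL2 (0.23) and CXCL3 (1.00) were not. These 13 were chosen for mention after their values were seen.

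The genes of the list called lower in M4 against M1 were PDCD4 and CDKN1A. CDKN1A (p21) fell from 311 and 228 CPM in M1 to 116 and 94.2 CPM in M4 (log2 fold change -1.36, SE 0.19, adjusted p = 0.00216), and PDCD4 changed by -2.11 (SE 0.27, adjusted p = 0.00147). PDCD4 had 51.0 and 58.8 CPM in M4 and 78.3 and 56.6 CPM in M3, ranges that overlapped. Against M1, TIA1 mRNA was called lower in M4 and not in M3, and ELAVL1 mRNA was called in neither. Binding of their proteins to PDCD4 mRNA is not measured in these data, and a relation to PDCD4 was not tested. FOS (-0.35), MYC (-0.46), DUSP1 (-0.55), HIF1A (-0.13) and EGR1 (0.29), known carriers of AU-rich elements and also chosen after their values were seen, were not called in M4 against M1.

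**Figure D4:**
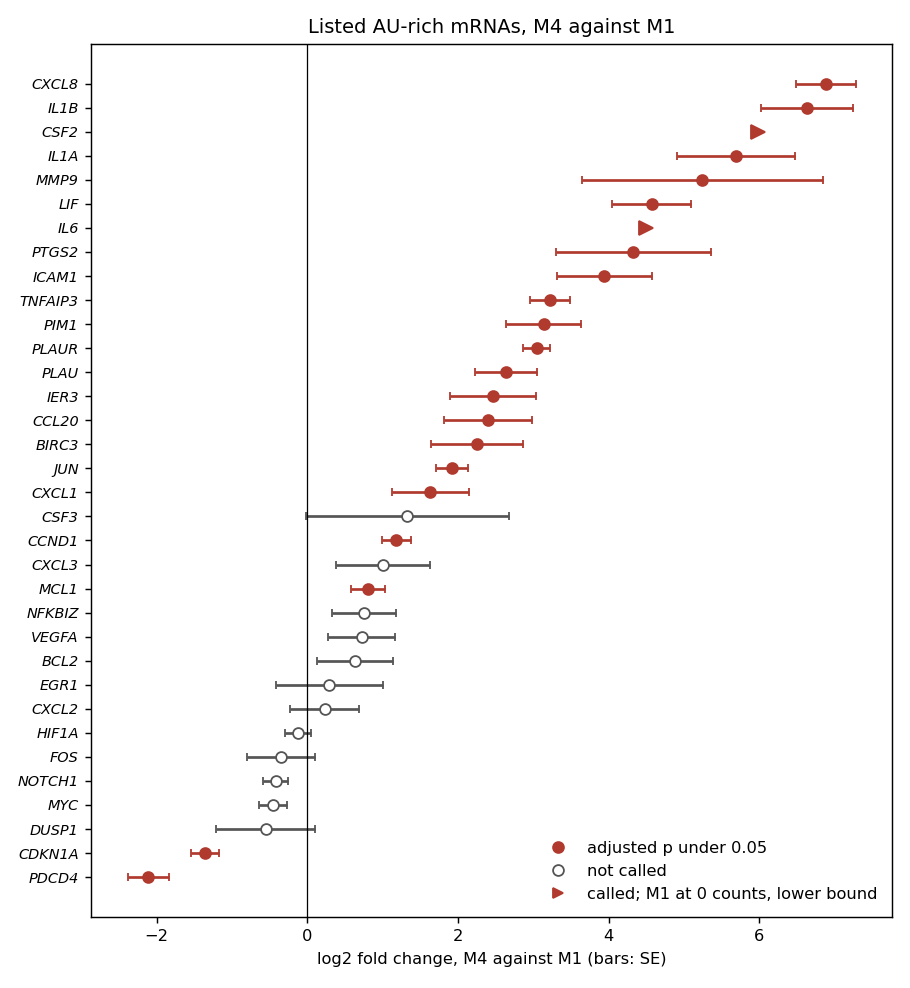
Log2 fold change of the 34 tested mRNAs with well-known AU-rich elements in M4 against M1 (x axis), with bars for the SE, filled red points for an adjusted p under 0.05 and triangles for CSF2 and IL6, which had 0 counts in M1 and are drawn at their lower bound. CXCL8 (6.89) is at the top and PDCD4 (-2.11) at the bottom; 20 genes are called higher and 2 lower.

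The same count was made over all mRNAs by the number of nonamers in the canonical 3′ UTR, a description chosen after the data were seen. In M4 against M1, 17.8% of 12577 mRNAs without a nonamer were called higher and 18.1% lower. With 1 nonamer it was 22.7% higher and 14.4% lower of 984 mRNAs, and with 2 or more 29.1% higher and 11.3% lower of 309. Longer 3′ UTRs hold more nonamers, the median length being 1134 bases without one and 3932 bases with 2 or more, and within 3′ UTRs of at least 1000 bases the shares were 18.6% higher and 16.5% lower without the nonamer, and 23.9% and 13.6% with 1 or more; the median lengths of these groups still differed, at 2287 and 3526 bases. In M2 against M1 the shares of higher calls were 4.24%, 3.56% and 5.50% for none, 1, and 2 or more nonamers. With the 2 libraries exchanged, the M4 against M1 shares were 5.24% higher and 6.37% lower without a nonamer and 12.9% and 2.59% with 2 or more.

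**Figure D5:**
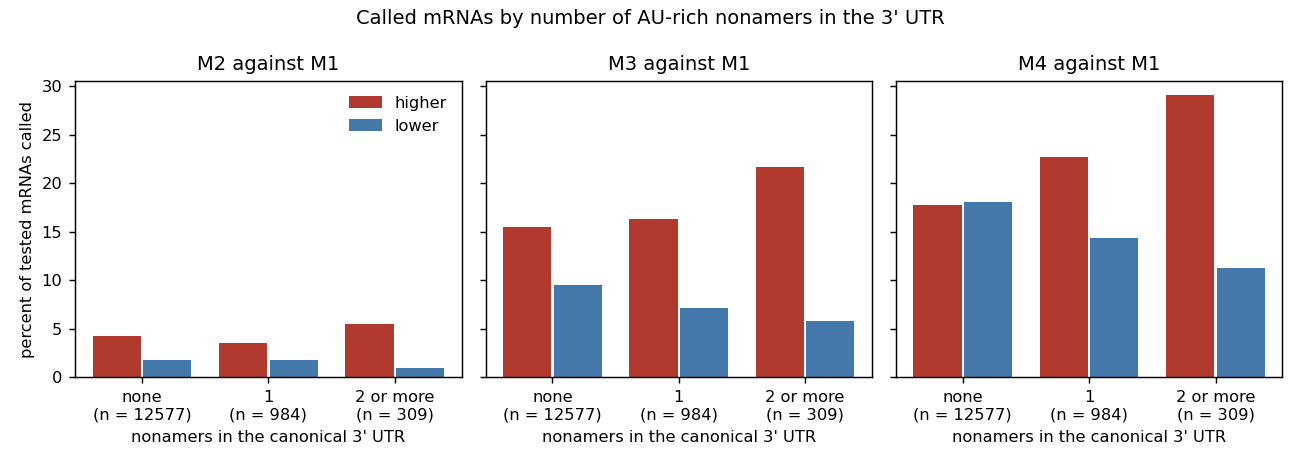
Percent of tested mRNAs (y axis, from 0) called higher (red) or lower (blue) in M2, M3 and M4 against M1, by the number of nonamers in the canonical 3′ UTR (x axis, with the number of mRNAs under each class). In M4 against M1 the higher share goes from 17.8% with no nonamer to 29.1% with 2 or more, and the lower share from 18.1% to 11.3%.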

How the data were processed

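The values are expected counts per gene, as deposited, for 8 RNA-seq libraries, 2 biological replicates for each of 4 lines. The authors trimmed poly A+, paired-end reads with Trimmomatic, aligned them to hg19 with STAR and counted them with RSEM on GENCODE release 19; Picard was used for mapping statistics. Tool versions and the use of strand are not given in the sources used here. The deposited expected counts are not normalized, and they were rounded here.

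Tests used edgeR 4.0.16 in R 4.3.3 (TMM, filterByExpr, robust quasi-likelihood F test, 1 coefficient per line, 8 libraries), adjusted over 18431 genes; the SE follows from the F statistic. The fit was tested on simulated counts. DESeq2 1.42.0 was an alternative, along with other scalings and filters, a replicate block and omitted or exchanged libraries. The 2-fold rule used CPM plus 0.001. Gene models were GENCODE release 44 on GRCh37, and 94.4% of the table's genes were matched.

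The members, lists and tests were chosen with earlier results of these data known. Named are the members, genes that overlap or derive from them, PDCD4, HRAS, the 3 genes most like each called member (log2 CPM with a prior count of 2, mean of at least 2), and, per list, up to 3 called genes with the largest change in each direction in M4 against M1; others are marked. Of 120 list genes, 119 were matched. The total counts of each library set the counting precision; at 78 CPM or more, as for ELAVL1, counting error is small beside the spread between replicates. Intervals and floors cover counting error only.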

Additional observations from a re-analysis of the deposited data

Results flagged for a closer look

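For ZFP36L1 and TIA1 the change from M1 differed between lines by a direct test. The change of ZFP36L1 from M1 was larger in M3 than in M2 by 1.32 on the log2 scale (adjusted p = 0.0179, edgeR) and larger in M4 than in M2 by 0.77 (adjusted p = 0.0427). The change of TIA1 from M1 in M4 differed from that in M2 by -1.05 (adjusted p = 0.0137) and from that in M3 by -0.86 (adjusted p = 0.0345). Because M1 is common to both sides, each of these differences equals the direct comparison of the 2 lines, and it depends on the same M2, M3 and M4 libraries.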

How the results depend on the processing

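Of 752 recomputed log2 fold changes of members, 714 kept their sign, 671 stayed on their side of the threshold, 57 lost the call and 24 gained one; the 38 with the other sign were of members not called, and all 155 of called members kept their sign, and TIA1 in M4 against M1 was called in 11 of 13 alternatives. The number of the 8 members called changed by more than 1.5 times as follows, with the cause not tested. In M2 against M1 (0 called) it was 3 with no filter on low counts, 1 with only the lines compared and 0 to 1 when 1 library was left out. In M3 against M1 (1) it was 3 with DESeq2, with no filter and with the replicate block, 0 with only the lines compared and 0 with M1 replicate 2 and M2 replicate 1 exchanged, and 0 to 3 when 1 library was left out. In M4 against M1 (2) it was 1 exchanged, 0 without both and 0 to 2. In M3 against M2 (1) it was 2 with no filter, 0 exchanged, 0 without both and 0 to 1. In M4 against M2 (2) it was 4 with only the lines compared, 1 exchanged, 0 without both, 1 when an absolute log2 fold change above 1 was also required, and 0 whichever library was left out. In M4 against M3 (1) it was 0 with total counts, 2 with no filter, 0 with only the lines compared, exchanged, without both or with the stricter call, and 0 to 2. For the mean of M3 and M4 against that of M1 and M2 (4) it was 1 exchanged, 1 without both, 0 with the stricter call and 0 to 4. By the 2-fold rule, a 1.5-fold threshold gave 1 in M2 (0), 2 in M3 (1) and 2 in M4 (1), total counts gave 0 in M3, the exchange gave 2 in M3 and 0 in M4, and leaving out a library gave up to 2. The AU-rich mRNA list (alternatives chosen after seeing the data) had 21 called higher in M3 against M1 with no filter and 4 exchanged, in place of 13. Replicate numbers do not pair the libraries (correlation of deviations between lines -0.02 to 0.12), and the replicate block raised the calls among members from 1 to 3 in M3 against M1 (HNRNPD and ZFP36L1 added) and ended that of TIAL1 in the pooled comparison (adjusted p = 0.0516).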
